A study of Rattus norvegicus with 3 samples.

Results

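The collagen genes were taken as every gene of the expression tables whose symbol consists of Col, a number, the letter a and a number. This gave 42 genes of 22250. They comprised 10 fibrillar collagens, 6 genes of type IV (the network of basement membranes), 3 genes of hexagonal networks (types VIII and X), 5 genes of beaded filaments (type VI), 1 of anchoring fibrils (type VII), 9 of fibril-associated collagens (FACIT), 2 multiplexins, 4 transmembrane collagens and 2 others. Col1a2, Col6a3 and Col21a1 matched no symbol and are not analysed here. The values come from single-nucleus RNA sequencing of the heart apex of male rats at 12 months of age, a piece with parts of the septum and of both ventricles, from which nuclei were sorted before capture. The WT library came from wild-type rats, the BMD library from rats with an in-frame deletion of neighbouring exons of Dmd (a model of Becker muscular dystrophy) and the DMD library from rats of a line that lacks a single exon of Dmd (a model of Duchenne muscular dystrophy); the BMD line has the Sprague Dawley background. Each genotype had 1 library, and neither the number of hearts behind a library nor the spread between animals was analysed here. Differences between genotypes are therefore differences between 3 libraries, with no test between genotypes, and the intervals below (95%) cover counting error only.

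Collagens are the main fibrous proteins of the extracellular matrix and are built of 3 chains wound into a triple helix. Types I, III and V form the fibrils of the cardiac interstitium, which are made mainly by fibroblasts and which build up as scar or fibrosis in dystrophic hearts. Type IV chains form the sheet under endothelial cells and around each cardiomyocyte, type VI forms beaded filaments beside it, and FACIT chains coat fibrils. The levels below are unique molecular identifiers (UMIs) in every 1000000 UMIs of the same class of nuclei and library (CPM). They were not corrected for transcript length, so a gene is compared with itself between classes and libraries and not with other genes.

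The 3 libraries held between 19215994 and 21609238 UMIs, of which 70.8% to 79.4% lay in nuclei, defined as the 9964, 6810 and 7890 barcodes with the most UMIs in WT, BMD and DMD. The median nucleus had between 1212.5 and 1486.5 UMIs. Of these barcodes, 20 occurred in both WT and BMD, 12 in both WT and DMD and 12 in both BMD and DMD. In cardiomyocyte-like nuclei Dmd itself stood at 16473 CPM in WT against 20570 in BMD and 19511 in DMD. The counts do not show whether reads fell in the deleted exons, so these values do not check the genotypes. The collagen genes gave 224795 UMIs in nuclei, of which 104085 were fibrillar and 57278 type IV. By the rule fixed for naming, at least 50 UMIs in the class with the highest level, 24 members are described one by one. The other 18 had between 0 (Col23a1) and 1291 UMIs (Col27a1) over all nuclei, and besides these they were Col2a1, Col4a6, Col6a4, Col6a5, Col8a2, Col9a1, Col9a2, Col9a3, Col10a1, Col11a1, Col11a2, Col20a1, Col22a1, Col25a1, Col26a1 and Col28a1.

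Among the named members 4 lie as head-to-head neighbours whose transcripts start close together on opposite strands, Col4a1 with Col4a2 and Col4a3 with Col4a4. Their upstream sequences are shown because the genes of each pair had ratios of like sign over all fibroblast-like and all cardiomyocyte-like nuclei, as given further on. This did not hold in every fibroblast sub-cluster. In the rat assembly GRCr8 (RefSeq) the start sites are 77 bases apart for Col4a1 and Col4a2 and 413 apart for Col4a3 and Col4a4. The 250 bases before each start are given 5′ to 3′ on the strand of the gene. They span chr16:84885347-84885596 on the plus strand for Col4a1, chr16:84885521-84885770 on the minus strand for Col4a2, chr9:91323740-91323989 on the plus strand for Col4a3 and chr9:91323578-91323827 on the minus strand for Col4a4. Capitals mark CCAAT and GGGCGG, letters bound by CCAAT box factors and by Sp1, on either strand.
Col4a1: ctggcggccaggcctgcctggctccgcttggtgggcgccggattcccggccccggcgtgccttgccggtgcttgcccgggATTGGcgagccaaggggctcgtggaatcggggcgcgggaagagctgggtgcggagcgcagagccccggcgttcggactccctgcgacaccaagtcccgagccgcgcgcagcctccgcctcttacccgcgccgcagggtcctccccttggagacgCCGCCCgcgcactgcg
Col4a2: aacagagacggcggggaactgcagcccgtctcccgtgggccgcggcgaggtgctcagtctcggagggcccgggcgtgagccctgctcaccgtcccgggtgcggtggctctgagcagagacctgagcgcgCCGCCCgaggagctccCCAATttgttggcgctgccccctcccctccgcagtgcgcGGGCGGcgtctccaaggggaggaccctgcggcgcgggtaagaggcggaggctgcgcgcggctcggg
Col4a3: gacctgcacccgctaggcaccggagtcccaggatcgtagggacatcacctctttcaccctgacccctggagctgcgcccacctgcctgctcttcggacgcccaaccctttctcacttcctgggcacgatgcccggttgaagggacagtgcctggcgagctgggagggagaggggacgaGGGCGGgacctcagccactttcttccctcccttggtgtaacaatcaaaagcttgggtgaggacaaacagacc
Col4a4: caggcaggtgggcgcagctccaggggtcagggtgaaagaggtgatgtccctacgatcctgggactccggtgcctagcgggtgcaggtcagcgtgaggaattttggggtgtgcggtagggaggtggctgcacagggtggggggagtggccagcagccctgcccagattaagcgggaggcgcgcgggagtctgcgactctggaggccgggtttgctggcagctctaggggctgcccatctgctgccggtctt

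The windows of each pair overlap on the genome, so they share part of their letters. CCAAT was present upstream of Col4a1 and Col4a2 and not in the 250 bases before Col4a3 or Col4a4. Of the 42 members 33 had an upstream sequence, and CCAAT occurred in 10 of these 33 against 34.0% of all 33469 sequences in the table. GGGCGG occurred in 19 of 33 against 30.5% of all, and TATAAA in 3 of 33 against 12.9%. The median share of G and C was 59.2% in the collagen sequences and 51.2% in all sequences. A GGGCGG in the overlap of the Col4a1 and Col4a2 windows occurs in both. The part of base content in these counts was not tested. The matches describe these letters and not the binding of a factor.

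Nuclei were clustered without the collagen genes and classes were named from other markers. The fibroblast-like class (Dcn, Pdgfra, Lum, Tcf21 and others, all 10 listed markers raised in its larger cluster) held 3515 WT, 1641 BMD and 2280 DMD nuclei, or 35.3%, 24.1% and 28.9% of the library. Its smaller cluster (128, 107 and 94 nuclei), led by Tnc and Ccl2, had 4 of 10 fibroblast markers raised and 3 markers of bone or cartilage. The whole class held 69.2% of all collagen UMIs in WT (68.8 to 69.5), 62.8% in BMD (62.4 to 63.2) and 62.2% (61.8 to 62.5) in DMD. The class therefore contributed the larger part of collagen transcripts in each library. Nuclei left without a name (491 WT, 244 BMD and 401 DMD) held 8.17%, 6.03% and 8.37% of collagen UMIs. Among them was a cluster of 431 nuclei with 8 of 10 fibroblast markers and 7 endothelial markers raised. Of the 24 named members, 14 had their highest mean level in fibroblast-like nuclei, 5 in pericyte or smooth muscle-like nuclei, 2 in Schwann-like nuclei and 1 each in macrophage-like, lymphatic endothelial-like and endocardial-like nuclei.

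**Figure D1:**
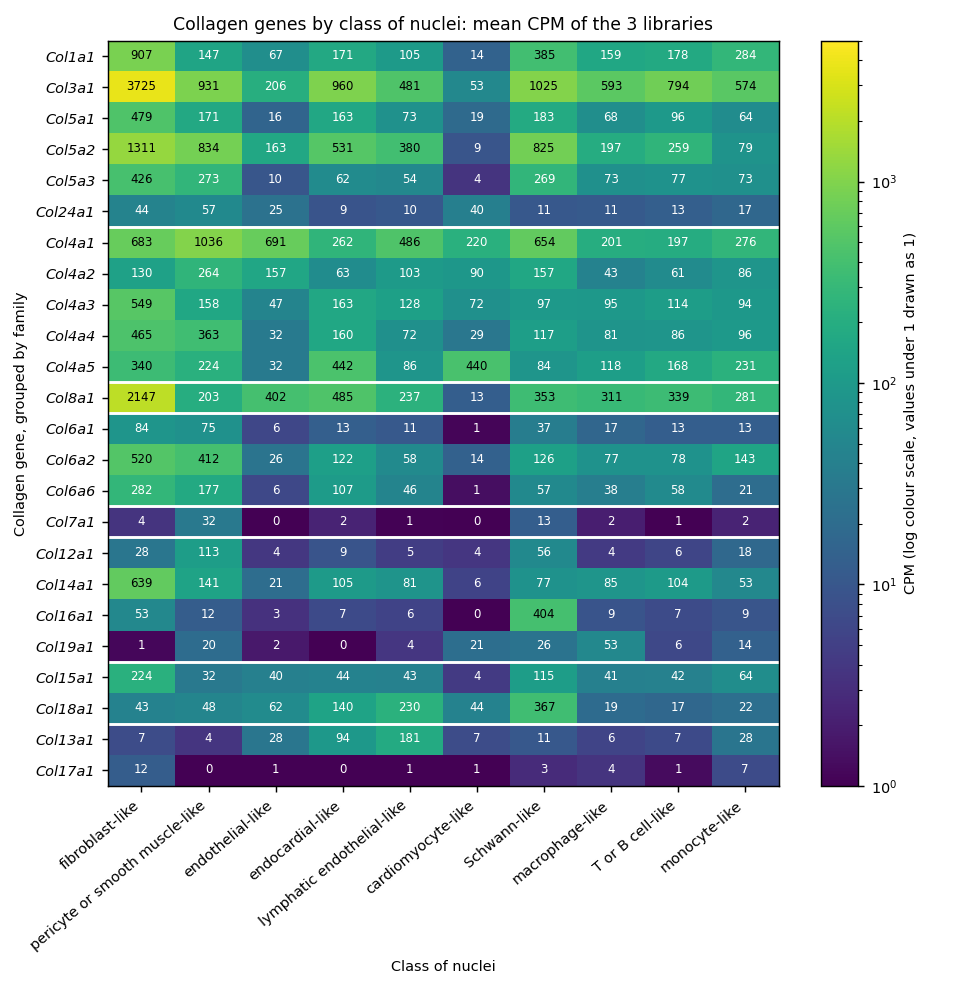
Mean CPM over the 3 libraries of the 24 named collagen genes (rows, grouped by family and separated by white lines) in 10 classes of nuclei (columns), on a log colour scale with the value printed in each cell. Col3a1 and Col8a1 were highest in fibroblast-like nuclei, Col4a1 in pericyte or smooth muscle-like nuclei, and Col4a5 was about as high in cardiomyocyte-like as in endocardial-like nuclei.

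The fibrillar genes Col1a1 and Col3a1, chains of types I and III, marked fibroblast-like nuclei. The mean CPM of Col3a1 was 3725 there and 1025 in the next class, Schwann-like nuclei, and 76.0% of its UMIs came from fibroblast-like nuclei. For Col1a1 the corresponding means were 907 and 385. When each nucleus was thinned to 500 UMIs, Col3a1 was found in 66.3% of WT, 70.8% of BMD and 75.0% of DMD fibroblast-like nuclei (unthinned 85.6%, 90.7% and 92.1%, at medians of 1217, 1590 and 1356 UMIs). In cardiomyocyte-like nuclei, which should lack it, the thinned shares of Col3a1 were 2.67%, 2.62% and 5.58% (unthinned 11.02%, 14.9% and 23.7%, at medians of 2760, 3765 and 3265 UMIs). The thinned share of fibroblast-like nuclei with Col1a1 was 28.4% in WT (26.9 to 29.9), 26.3% in BMD (24.2 to 28.5) and 36.5% (34.6 to 38.5) in DMD, and the unthinned shares were 52.4%, 54.8% and 63.8%. The cardiomyocyte-like shares of Col1a1 were 0.593%, 0.655% and 1.42% after thinning and 2.82%, 4.32% and 7.47% without it. The levels behind these low shares lay under an upper estimate of free RNA, made from barcodes with at most 50 UMIs, and are read as background.

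Type IV genes were spread over more classes. Col4a1 and Col4a2, whose chains make up the ordinary basement membrane network, were highest in pericyte or smooth muscle-like nuclei, at a mean of 1036 CPM for Col4a1 and 264 CPM for Col4a2. Col4a3 and Col4a4, chains known from the specialised basement membrane of the kidney glomerulus, were highest in fibroblast-like nuclei, at means of 549 and 465 CPM. Col4a5, the partner chain of Col4a3 and Col4a4, reached means of 442 CPM in endocardial-like and 440 CPM in cardiomyocyte-like nuclei, with overlapping counting intervals in each library. Cardiomyocyte-like nuclei held mainly type IV transcripts, which made up 71.1% of their collagen UMIs in WT against 77.95% in BMD and 72.8% in DMD. Fibroblast-like nuclei held type IV as 21.1%, 14.2% and 14.7% of their collagen UMIs.

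In fibroblast-like nuclei the summed collagen level was higher in both mutant libraries than in WT, by the same amount. It was 11726 CPM in WT (11630 to 11823), 13963 in BMD (13828 to 14099) and 13991 (13867 to 14116) in DMD, which is 1.19-fold over WT in BMD (1.18 to 1.21) and 1.19-fold in DMD (1.18 to 1.21). Over all nuclei the total was 4779 CPM in WT against 4321 in BMD and 5673 in DMD, thus 0.904-fold in BMD (0.895 to 0.913) and 1.19-fold in DMD (1.18 to 1.20). Over all nuclei the total also depends on the share of fibroblast-like nuclei, which was lowest in BMD and whose part in the difference was not tested. With the mix of fibroblast sub-clusters (described further on) held fixed, the fibroblast-like totals were 1.11-fold in BMD and 1.13-fold in DMD.

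The equal totals were made of different families. Fibrillar transcripts were 1.22-fold over WT in BMD (1.20 to 1.24) and 1.40-fold in DMD (1.37 to 1.42). Transcripts of the hexagonal network, nearly all Col8a1, were 2.15-fold in BMD (2.08 to 2.22) and 1.30-fold in DMD (1.26 to 1.35). Type IV transcripts were lower in both, at 0.802-fold in BMD (0.777 to 0.827) and 0.830-fold in DMD (0.806 to 0.855). Multiplexin transcripts were also lower, at 0.699-fold and 0.835-fold. Type VI transcripts were 0.839-fold in BMD (0.797 to 0.883) and 1.07-fold in DMD (1.02 to 1.12), so the libraries lay on opposite sides of WT. FACIT transcripts were 1.01-fold in BMD (0.955 to 1.06), with an interval that included no difference, and lower in DMD, at 0.901-fold (0.855 to 0.948).

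Gene by gene, a difference was counted when the ratio of CPM + 5 passed 1.5-fold and the gene had at least 50 UMIs in the libraries compared. In BMD against WT, 24 members had enough UMIs, and 3 were higher (Col8a2, Col27a1 and Col8a1) and 4 lower (Col24a1, Col4a4, Col4a3 and Col18a1), that is 12.5% and 16.7% of them, where of all 10061 genes with enough UMIs 4.08% were higher and 6.42% lower. In DMD against WT, 26 members had enough UMIs, and 5 were higher (Col11a1, Col8a2, Col1a1, Col4a2 and Col13a1) and 3 lower (Col4a4, Col4a3 and Col18a1), where of 10215 genes 3.63% were higher and 2.85% lower. Col11a1 (3 WT and 76 DMD UMIs) and Col13a1 (11 and 55) had enough UMIs only through DMD, the library in which they were high, and with at least 100 UMIs per gene 3 members were higher in DMD. The median log2 ratio of the members was 0.11 in BMD and 0.17 in DMD, and that of all genes was -0.05 and -0.02. Col1a1 in DMD was under the limit when nuclei with over 5% mitochondrial UMIs were removed, and Col27a1 in BMD under 7 of the settings tried. BMD and DMD were compared with the same WT library, so their ratios are not independent. Col8a2, Col27a1, Col11a1, Col2a1, Col11a2 and Col25a1 fall outside the naming rule and were named after their values were seen.

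**Figure D2:**
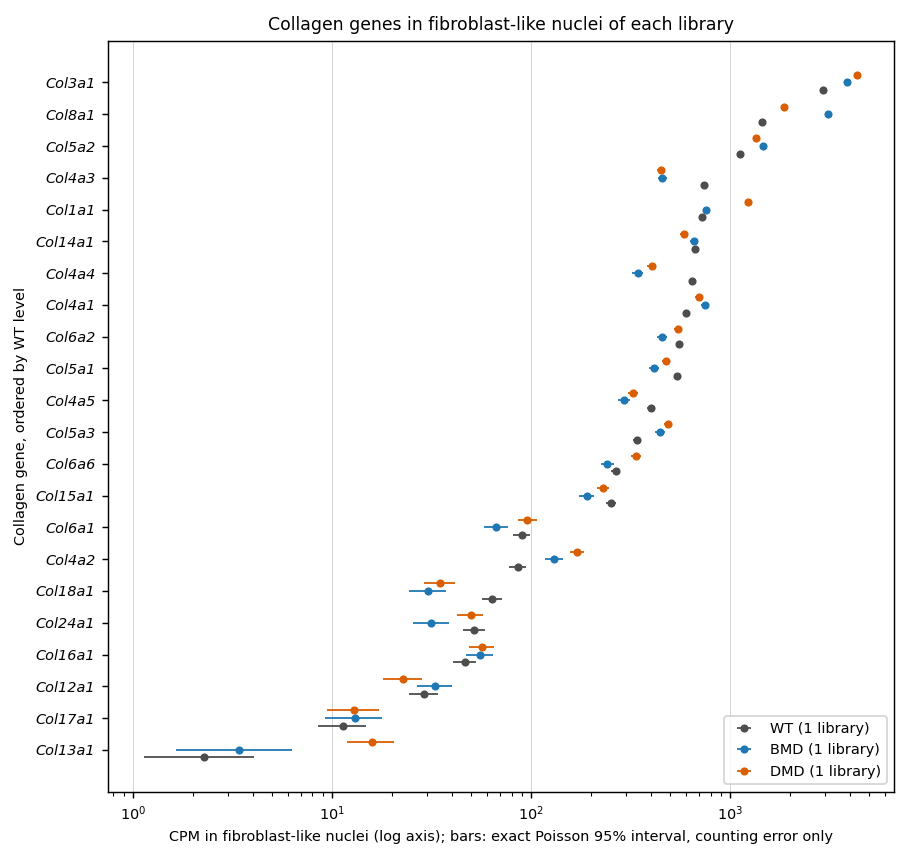
CPM of 22 named collagen genes in fibroblast-like nuclei (log axis) in the WT, BMD and DMD libraries, 1 library each, with exact Poisson 95% intervals for counting error. Col8a1 stood apart in BMD (3112 CPM), Col1a1 in DMD (1232 CPM), and Col4a3 and Col4a4 were lower in both mutant libraries than in WT.

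Among fibrillar collagens, Col3a1 was at 2944 CPM in WT against 3863 in BMD and 4368 in DMD, log2 ratios to WT of 0.39 (0.36 to 0.43) and 0.57 (0.54 to 0.60). It was ordered WT, BMD, DMD with no overlap of the counting intervals, and neither ratio passed 1.5-fold. Col1a1 was at 725 CPM in WT against 763 in BMD and 1232 in DMD. Its log2 ratio was 0.07 in BMD (-0.004 to 0.15), where WT and BMD overlapped, and 0.77 in DMD (0.70 to 0.83). Col5a2, a minor chain of the same fibrils, was at 1122 CPM in WT against 1463 in BMD and 1347 in DMD. Col5a3 was at 343, 447 and 488 CPM, and so both of these type V genes were higher in the mutant libraries. Col5a1, the third type V gene, went the other way, at 542 CPM in WT against 417 in BMD and 477 in DMD (log2 -0.38 and -0.19). Col24a1, a fibrillar gene known from developing bone and cornea, was at 51.9 CPM in WT against 31.6 in BMD and 49.8 in DMD. Only the BMD value of Col24a1 passed the 1.5-fold limit. Col27a1, a fibrillar gene of cartilage, was at 38.5 CPM in WT against 61.2 in BMD and 51.0 in DMD.

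Type IV genes split by pair in fibroblast-like nuclei. Col4a1 was at 601 CPM in WT against 750 in BMD and 698 in DMD (log2 0.32 and 0.22), and Col4a2 was at 86.0, 131 and 171 CPM (log2 0.61 and 0.995). Over the whole class both genes of this pair were thus higher in both mutant libraries, though only Col4a2 in DMD passed 1.5-fold on CPM + 5. With the sub-cluster mix held fixed, as given further on, Col4a1 in BMD was close to WT. Col4a3 was at 739 CPM in WT (715 to 764), 458 in BMD (434 to 483) and 451 (429 to 474) in DMD, 38.0% and 38.9% lower than in WT. Col4a4 was at 645 CPM in WT (623 to 668), 345 in BMD (324 to 367) and 404 (383 to 426) in DMD, 46.6% and 37.4% lower. This second pair was lower in both mutant libraries with no overlap with WT. Col4a5 was also lower, at 400 CPM in WT against 294 in BMD and 325 in DMD, a difference under 1.5-fold. The pair Col4a3 and Col4a4 was lower in both mutant libraries in endocardial-like nuclei too. There Col4a3 was at 265 CPM in WT against 43.9 in BMD and 181 in DMD, and Col4a4 at 279, 35.9 and 167 CPM. In lymphatic endothelial-like nuclei Col4a3 was at 236, 36.6 and 111 CPM. The cardiomyocyte-like values of the pair, given further on, differed in DMD. Thinned to 500 UMIs, 29.2% of WT, 21.4% of BMD and 18.9% of DMD fibroblast-like nuclei had a Col4a3 UMI (unthinned 51.2%, 42.7% and 40.2%), beside 2.28%, 2.18% and 2.26% of endothelial-like nuclei (unthinned 3.25%, 4.03% and 3.90%, at medians of 792, 1086 and 937 UMIs).

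Col8a1, a short-chain network collagen of vessel walls and of remodelling heart, separated BMD from the other libraries. It was at 1456 CPM in WT (1422 to 1491), 3112 in BMD (3048 to 3177) and 1871 (1826 to 1918) in DMD, which is 2.14-fold over WT in BMD (2.07 to 2.20) and 1.29-fold in DMD (1.24 to 1.33). Between the mutants the log2 ratio of DMD over BMD was -0.73 (-0.78 to -0.69). The thinned share of fibroblast-like nuclei with Col8a1 was 28.9% in WT, 46.6% in BMD and 35.5% in DMD (unthinned 41.6%, 64.8% and 52.4%), beside 0.247%, 0.917% and 1.04% of cardiomyocyte-like nuclei (unthinned 1.53%, 5.50% and 5.11%). Its partner chain Col8a2 was at 9.51 CPM in WT against 35.4 in BMD and 34.9 in DMD, log2 ratios of 1.90 (1.38 to 2.43) and 1.87 (1.37 to 2.40). Col8a2 was the only member past 1.5-fold and higher in both mutant libraries in this class.

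Of the remaining families, Col6a2 was at 558 CPM in WT against 457 in BMD and 547 in DMD, and Col6a1 was at 89.9, 67.0 and 96.2 CPM. Both chains were lower in BMD than in the other libraries, and their WT and DMD intervals overlapped. Col6a6 was at 267 CPM in WT against 242 in BMD and 337 in DMD. The FACIT gene Col14a1, a fibril coat protein, was at 670, 658 and 588 CPM, and Col16a1 was at 46.5, 55.7 and 56.8 CPM. Col15a1, a multiplexin of basement membrane zones, was at 253 CPM in WT against 191 in BMD and 230 in DMD. Col18a1, the multiplexin whose end fragment is endostatin, was at 63.9 CPM in WT against 30.6 in BMD and 34.9 in DMD, 52.1% and 45.4% lower. The remaining fibroblast genes of this group, Col12a1 (29.1, 33.0 and 22.8 CPM) and the transmembrane collagen Col17a1 (11.4, 13.06 and 12.96 CPM), had ratio intervals that included no difference over the whole class (Col12a1 was lower in DMD with the sub-cluster mix held fixed, as given further on).

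**Figure D3:**
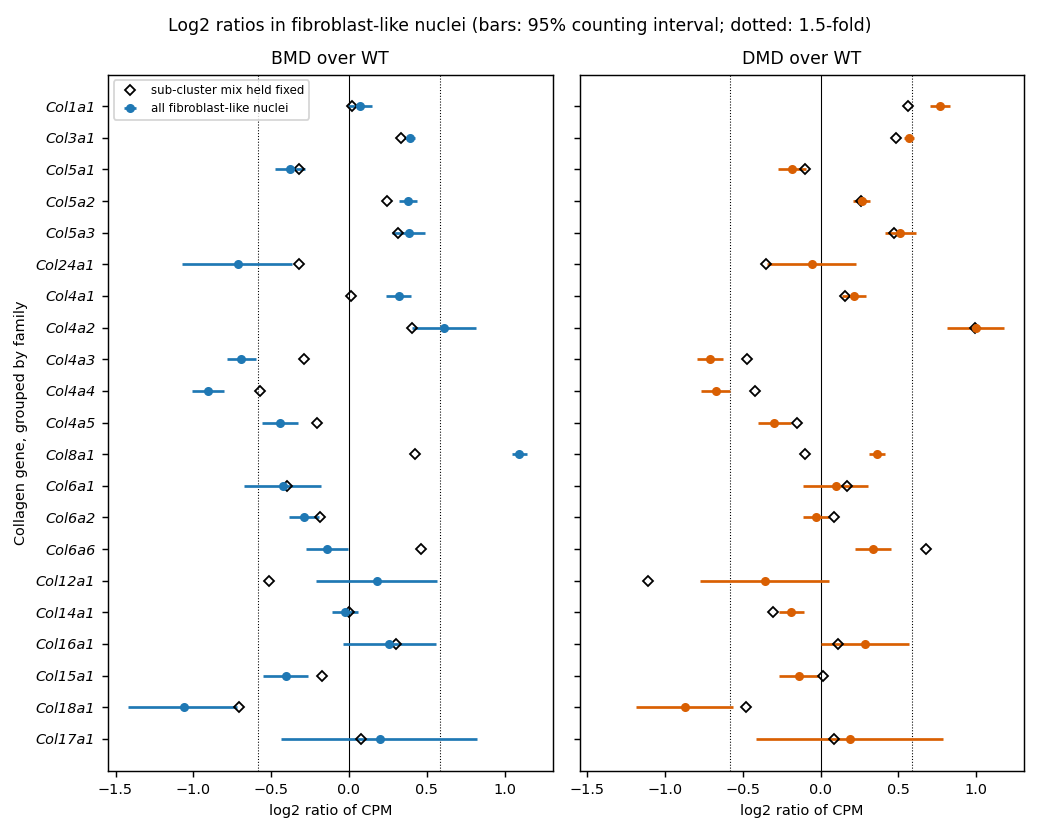
Log2 ratios of CPM to WT for 21 named collagen genes in fibroblast-like nuclei, BMD on the left and DMD on the right, with 95% counting intervals (filled points), dotted lines at 1.5-fold and, as open diamonds, the ratios with the mix of fibroblast sub-clusters held fixed. Col8a1 in BMD moved from 1.10 to 0.42 with the mix fixed, whereas Col4a2 in DMD was 0.995 and 0.99.

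The fibroblast-like class was divided further, again without collagen genes, into 8 sub-clusters, and their mix differed between the libraries. A sub-cluster led by Ccn5, Nox4 and Il1rapl1, with Cilp among its leading genes, held 3.19% of the fibroblast-like nuclei of WT, 38.1% of those of BMD and 23.6% of those of DMD. A sub-cluster led by Ntf3, Dpep1 and Fgf10 held 51.2%, 11.03% and 14.6%. Mean Col8a1 was 4105 CPM in the Ccn5-led and 1536 CPM in the Ntf3-led sub-cluster, so Col8a1 was high where BMD had most nuclei. Col4a3 was the reverse, at 379 CPM in the Ccn5-led and 744 CPM in the Ntf3-led sub-cluster. A smaller sub-cluster led by Tnc and Ccl2 (5.06%, 8.65% and 3.60% of nuclei) had the highest means of Col4a1 (1889 CPM), Col27a1 (212 CPM) and Col12a1 (145 CPM) among the 5 sub-clusters with enough nuclei in each library. Nuclei were assigned to these sub-clusters by other variable genes, and whether the boundaries differ between the libraries was not tested.

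Within sub-clusters some ratios shrank and others did not. With the mix held fixed, Col8a1 was 1.34-fold over WT in BMD and 0.934-fold in DMD. Col4a3 was 0.820-fold and 0.720-fold, Col4a4 was 0.673-fold and 0.748-fold, and each was lower than WT in 5 of 5 sub-clusters in both mutants. Col18a1 was 0.612-fold and 0.717-fold, but it was higher than WT in 2 of 5 sub-clusters in BMD and in 1 of 5 in DMD. Col3a1 was 1.26-fold and 1.40-fold, Col5a3 was 1.24-fold and 1.39-fold, and Col4a2 was 1.32-fold and 1.99-fold. These 3 genes and Col8a2 (2.005-fold and 2.54-fold) were higher than WT in 5 of 5 sub-clusters in both mutants. Some of these differences were within counting error. In the Tnc-led sub-cluster the BMD log2 ratio of Col4a4 was -0.57 (-1.28 to 0.13). In a sub-cluster led by Efhd1, the DMD log2 ratios were -0.21 for Col4a3 (-0.47 to 0.05) and -0.23 for Col4a4 (-0.47 to 0.02). The BMD log2 ratios in that sub-cluster were 0.09 for Col3a1 (-0.02 to 0.19) and 0.03 for Col5a3 (-0.35 to 0.39). For Col4a2 it was 0.05 there (-0.99 to 1.01). Its pair partner Col4a1 was 1.01-fold in BMD and 1.11-fold in DMD with the mix fixed. Col4a1 was higher than WT in 3 of 5 sub-clusters in BMD and in 4 of 5 in DMD. In the Efhd1-led sub-cluster it was lower in BMD, at log2 -0.41 (-0.74 to -0.09). Col8a2 had 0 WT, 1 BMD and 1 DMD UMI in the Tnc-led sub-cluster. Col1a1 was 1.01-fold in BMD and 1.48-fold in DMD, and in DMD it was higher in 5 of 5 sub-clusters. In the Tnc-led sub-cluster Col1a1 stood at 691 CPM in WT against 1184 in BMD and 2166 in DMD. With the mix fixed, most of the calls given above were under 1.5-fold. In BMD, Col8a2 was still past the limit as higher and Col18a1 as lower, while Col8a1, Col27a1, Col24a1, Col4a3 and Col4a4 were under it. In DMD, Col8a2 and Col4a2 were still past it as higher, joined by Col6a6 (log2 0.68). Col1a1, Col11a1 and Col13a1 were under the limit on CPM + 5, though Col11a1 was 1.68-fold on plain CPM. The fixed mix covers only the 5 sub-clusters with enough nuclei in each library. It thus leaves out the bone gene sub-cluster described below, which was seen in DMD only. None of the 3 members lower in DMD (Col4a3, Col4a4 and Col18a1) was past the limit with the mix fixed, and Col12a1 was newly past it as lower, at 0.463-fold, below WT in 5 of 5 sub-clusters. In the Tnc-led sub-cluster Col12a1 was at 199 CPM in WT against 149 in BMD and 87.1 in DMD, from 65, 51 and 15 UMIs (log2 -1.19 in DMD, -2.11 to -0.36).

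**Figure D4:**
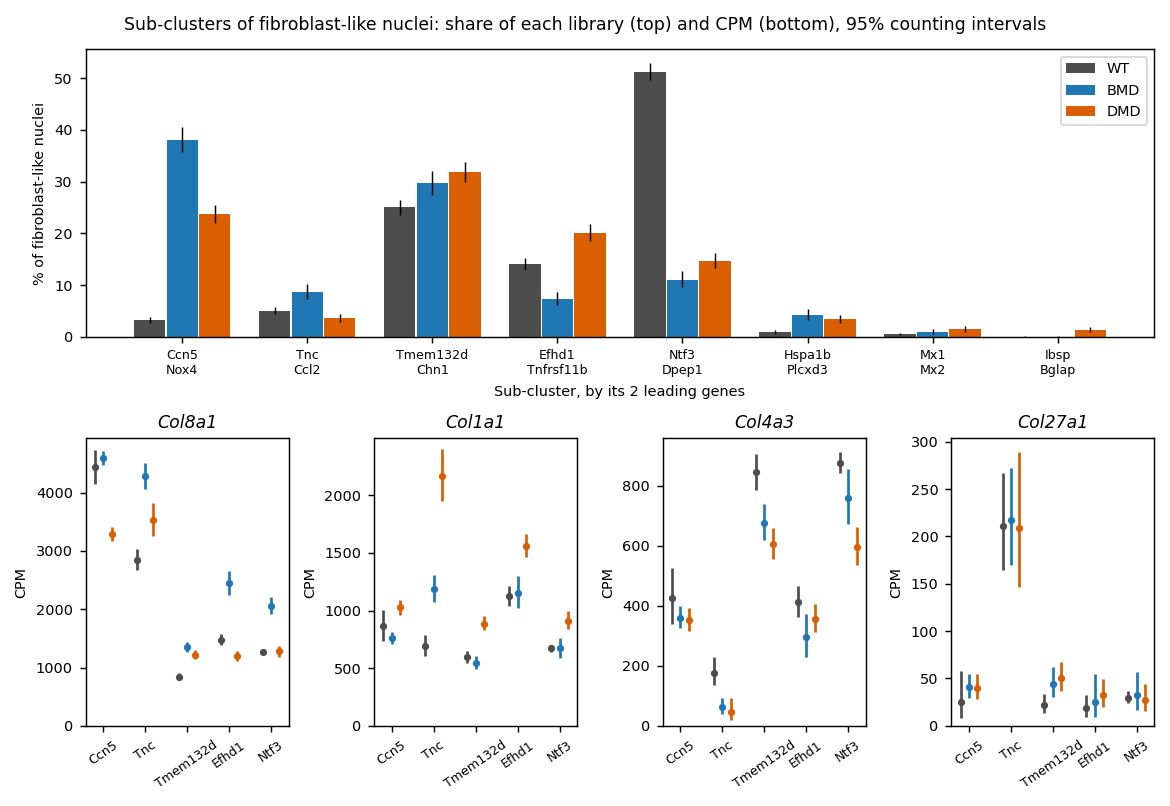
Share of each library's fibroblast-like nuclei in 8 sub-clusters (top, bars from 0, exact binomial 95% intervals) and CPM of Col8a1, Col1a1, Col4a3 and Col27a1 in 5 of them (bottom, points with exact Poisson 95% intervals). The Ntf3-led sub-cluster held 51.2% of WT nuclei and the Ccn5-led one 38.1% of BMD nuclei, and Col8a1 was higher in the Ccn5-led sub-cluster in each library.

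A sub-cluster of 30 nuclei, all in DMD (1.32% of its fibroblast-like nuclei, 0.889 to 1.87), was led by Ibsp and Bglap, genes of bone matrix, with Runx2, the transcription factor of bone formation, in 26 of its nuclei. Ibsp was seen in 20 of the 30 nuclei and Bglap in 4. Among other markers of bone or cartilage, Alpl was seen in 10, Acan in 3, Sp7 in 2 and Sox9 in 1. None of 3515 WT nuclei fell in this sub-cluster, with an upper limit of 0.105%, and none of 1641 in BMD, with an upper limit of 0.225%. It held 78.9% of the Col11a1 UMIs of DMD fibroblast-like nuclei (60 of 76), 89.1% of Col13a1 (49 of 55), 97.6% of Col2a1 (41 of 42), 66.7% of Col11a2 (22 of 33) and 89.5% of Col25a1 (17 of 19). Types II and XI are the fibrillar collagens of cartilage, and Col13a1 and Col25a1 are transmembrane collagens. These UMIs came from few nuclei, since Col11a1 was seen in 14 of the 30, Col13a1 in 13, and Col2a1, Col11a2 and Col25a1 in 7, 7 and 6. Col1a1 was seen in 27 of the 30 nuclei, and these gave 10.6% of its UMIs in DMD fibroblast-like nuclei. Col3a1 stood at 449 CPM in the 30 nuclei against 4419 CPM in the other DMD fibroblast-like nuclei. For Col14a1 the values were 112 and 594 CPM. Without this sub-cluster the log2 ratio of Col1a1 in DMD was 0.62 (0.56 to 0.69) in place of 0.77, and that of Col13a1 was -0.38 (-2.10 to 1.18) in place of 2.80. Over the whole class Col11a1 had 3 UMIs in WT against 6 in BMD and 76 in DMD, and Col2a1 had 0, 0 and 42, with upper limits of 0.763 CPM in WT and 1.27 CPM in BMD.

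In cardiomyocyte-like nuclei the collagen total was 959 CPM in WT (935 to 983), 1220 in BMD (1194 to 1247) and 1266 (1231 to 1302) in DMD. Type IV transcripts were 1.40-fold over WT in BMD (1.34 to 1.45) and 1.35-fold in DMD (1.29 to 1.41). In BMD 20 members had enough UMIs, and 6 were higher and 3 lower past 1.5-fold, against 4.66% and 5.13% of all genes in this class. In DMD 19 had enough, and 7 were higher and 2 lower, against 5.91% and 6.53%. Past the limit and higher in both were Col4a1, Col4a2, Col18a1, Col8a1 and Col6a2, and Col24a1 was lower in both. Col1a1 and Col3a1 passed as higher in DMD only. Like Col8a1 and Col6a2, they are not read as cardiomyocyte expression, because of the free RNA values given below. With finer clustering (Leiden resolution 1.0), a cardiomyocyte-like cluster led by Lsamp and Myh6 held 1897 WT, 638 BMD and 613 DMD nuclei. Another, led by Hs3st2 and Xirp2, held 123, 883 and 437. The part of this mix in the ratios of cardiomyocyte-like nuclei was not tested.

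Col4a1 was at 131 CPM in WT against 256 in BMD and 274 in DMD within this class, log2 ratios of 0.96 (0.84 to 1.08) and 1.06 (0.93 to 1.19). Col4a2 was at 61.3, 95.1 and 114 CPM (log2 0.63 and 0.89). The pair was higher in both mutants, and after thinning to 500 UMIs a Col4a1 UMI was found in 5.78% of WT, 10.9% of BMD and 13.1% of the DMD nuclei (unthinned 28.1%, 48.8% and 48.4%). Col18a1 was at 22.9 CPM in WT against 66.2 in BMD and 42.8 in DMD. Col4a5 was at 375, 535 and 409 CPM and was highest in BMD. The other pair did not follow the fibroblast pattern in DMD, with Col4a3 at 80.5 CPM in WT against 47.8 in BMD and 86.7 in DMD, and Col4a4 at 33.0, 17.0 and 37.9 CPM. Col24a1 was at 71.3 CPM in WT against 8.74 in BMD and 39.2 in DMD, log2 ratios of -3.03 (-3.45 to -2.63) and -0.86 (-1.14 to -0.59). Col24a1 thus had its lowest level in BMD, with no overlap among the 3 libraries.

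Several other collagens in cardiomyocyte-like nuclei were not clearly above free RNA. The background estimates given here and for endothelial-like nuclei are upper limits, so the background itself may be lower. The upper estimate for Col3a1 was 63.6 CPM in WT against 69.9 in BMD and 98.4 in DMD, above the 37.5, 39.5 and 81.7 CPM measured. That for Col1a1 (17.2, 21.3 and 43.3 CPM) also exceeded the measured 9.01, 11.5 and 22.6 CPM. Col8a1 (5.06, 14.8 and 18.9 CPM) and Col6a2 (6.32, 14.6 and 21.3 CPM) were less than 2 times their background estimates in at least 1 library as well, so their higher values are not read as cardiomyocyte expression. The estimates for Col4a1 (15.3, 25.4 and 21.4 CPM), Col4a2 (2.70, 3.92 and 3.36 CPM) and Col18a1 (1.64, 3.57 and 3.43 CPM) were far below the measured levels. Markers of endothelial cells, which express Col4a1 and Col18a1, summed to 113 CPM in WT against 166 in BMD and 186 in DMD within this class, with 7 of 9 higher in BMD and 8 of 9 higher in DMD and none at 0 in all libraries. Fibroblast markers summed to 248, 172 and 400 CPM there, with 2 of 10 and 8 of 10 higher. Their part in the collagen values was not tested.

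**Figure D5:**
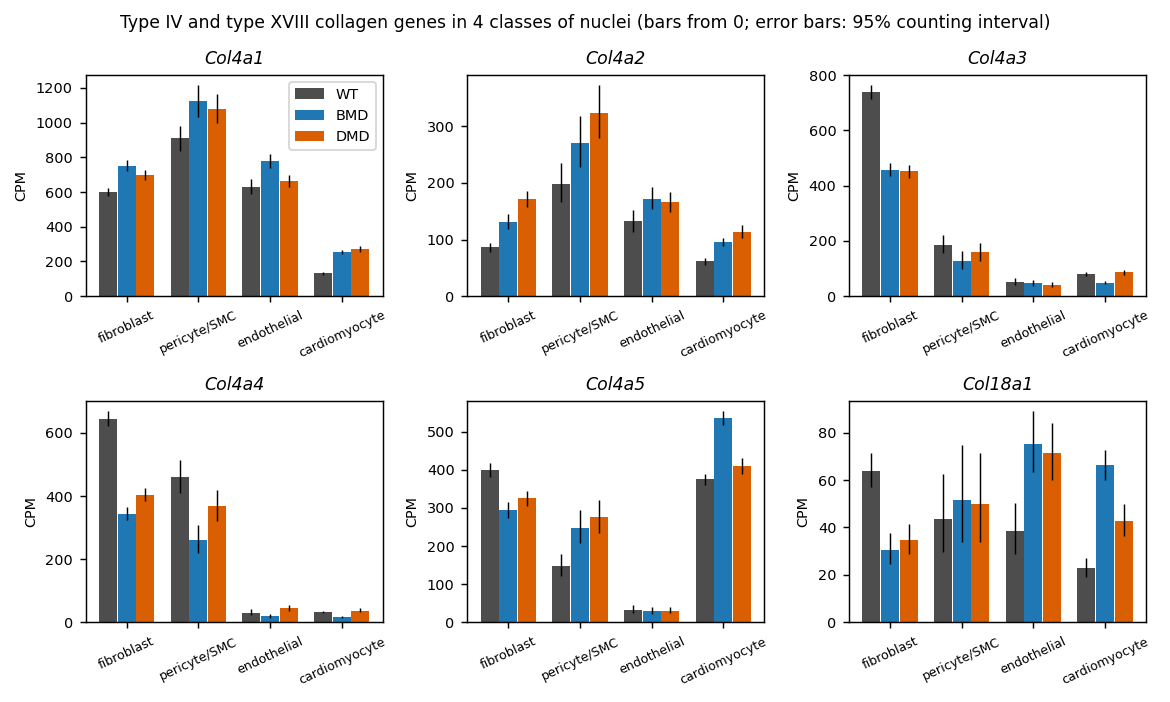
CPM of 5 type IV genes and Col18a1 in fibroblast-like, pericyte or smooth muscle-like (pericyte/SMC), endothelial-like and cardiomyocyte-like nuclei of the WT, BMD and DMD libraries (bars from 0, exact Poisson 95% intervals). Col4a1 and Col4a2 were higher in the mutant bars in each class, Col4a3 and Col4a4 were lower in fibroblast-like nuclei, and Col18a1 was lower in fibroblast-like and higher in cardiomyocyte-like and endothelial-like nuclei.

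In endothelial-like nuclei the total was 2013 CPM in WT against 2143 in BMD and 2127 in DMD, and type IV was the largest family, with 43.7%, 49.0% and 44.6% of collagen UMIs. In BMD 16 members had enough UMIs, and 2 were higher (Col27a1 and Col18a1) and 2 lower (Col14a1 and Col13a1), against 3.54% and 5.35% of all genes. In DMD 17 had enough, and 6 were higher and 1 lower (Col13a1), against 3.75% and 2.52%. Of the 6, Col1a1, Col3a1, Col5a1 and Col6a2 passed in DMD only. Fibroblast markers summed to 767 CPM in WT against 519 in BMD and 1171 in DMD within this class. Of these 10 markers, 4 were higher in BMD and 9 in DMD. Their part in the collagen values was not tested. The measured Col1a1 (40.6, 51.3 and 110.0 CPM) and Col3a1 (164, 167 and 287 CPM) were less than 2 times their upper background estimates in at least 1 library (40.2, 27.2 and 91.9 CPM for Col1a1 and 149, 89.2 and 209 CPM for Col3a1), and are not read as endothelial expression.

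Col18a1, in contrast, lay well above its estimate in endothelial-like nuclei, at 38.4 CPM in WT against 75.2 in BMD and 71.3 in DMD, log2 ratios of 0.97 (0.50 to 1.46) and 0.89 (0.43 to 1.38). It was concentrated in the smaller endothelial cluster, led by Dkk2, Gja5 and Sox17, genes known from arteries, with 192 CPM in WT against 264 in BMD and 374 in DMD. That cluster held 16.1%, 24.1% and 15.6% of endothelial-like nuclei. In the larger cluster, led by Unc5c, Aplnr and Fabp4, Col18a1 was at 9.64, 20.4 and 21.4 CPM. In the smaller cluster the BMD ratio was under 1.5-fold and its interval included no difference (log2 0.46, -0.07 to 1.01). Col13a1 went the other way, at 56.1 CPM in WT against 10.9 in BMD and 16.8 in DMD, log2 ratios of -2.36 (-3.15 to -1.64) and -1.74 (-2.36 to -1.13). Within the larger cluster it was at 66.6, 13.4 and 17.3 CPM, and the smaller cluster held 0, 1 and 4 of its UMIs, which in DMD is 13.98 CPM (3.81 to 35.8). Col4a1 was at 629 CPM in WT against 779 in BMD and 664 in DMD, and Col4a2 at 132, 172 and 165 CPM. Col8a1 was at 429, 472 and 306 CPM, lowest in DMD. Col5a2 was at 202 CPM in WT against 144 in BMD and 143 in DMD.

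Pericyte or smooth muscle-like nuclei had the second-highest collagen level among the larger classes, with 5530 CPM in WT against 5521 in BMD and 6398 in DMD. In BMD 18 members had enough UMIs, and 4 were higher and 3 lower (Col5a1, Col6a6 and Col4a4), against 5.26% and 7.56% of all genes. In DMD 18 had enough, and 6 were higher and 0 lower, against 5.38% and 5.54%. Past the limit in both were Col12a1, Col14a1, Col4a5 and Col8a1, all higher, although Col14a1 in BMD reversed to a log2 ratio of -0.22 when barcodes needed at least 1000 UMIs. Col12a1, a FACIT chain known from loaded connective tissue and repair, was at 27.7 CPM in WT against 206 in BMD and 105 in DMD, from 19, 108 and 63 UMIs (log2 2.89, 2.18 to 3.68, and 1.93, 1.17 to 2.75). It had enough UMIs only through the mutant libraries, in which it was high. Col14a1 was at 93.2, 149 and 180 CPM and Col4a5 at 149, 248 and 275 CPM. Col8a1 was at 127 CPM in WT against 215 in BMD and 267 in DMD. Each of these 4 genes was lowest in WT. Col1a1 was at 94.7 CPM in WT against 87.6 in BMD and 259 in DMD, and Col4a2 at 198, 271 and 324 CPM, both past the limit in DMD only. Col4a1 was at 909, 1122 and 1078 CPM. The libraries of these nuclei had 705, 449 and 514 nuclei, and summed fibroblast markers stood at 2492 CPM in WT against 1717 in BMD and 3177 in DMD in this class. Their part in the fibrillar values was not tested. At Leiden resolution 1.0 a cluster of this kind led by Myh11 and Acta2 held 76 WT, 70 BMD and 73 DMD nuclei. A larger one, led by Rgs5 and Adgrl3, held 627, 377 and 439. The part of this mix in the ratios of the class was not tested.

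Genes that process collagen were read in fibroblast-like nuclei, from lists chosen with earlier results of these data known. Of 20 genes found for chain modification, folding and export, 19 had enough UMIs. None was past 1.5-fold and higher in BMD or DMD, against 4.08% and 3.63% of all genes. As lower, 3 passed in BMD (Fkbp14, Colgalt2 and P3h2) and none in DMD, against 6.42% and 2.85% of all genes. The lysyl hydroxylase Plod2 was at 1014 CPM in WT against 1418 in BMD and 1012 in DMD, and the galactosyltransferase Colgalt2 at 633, 415 and 467 CPM. The prolyl hydroxylase subunit P4ha1 was at 320.2, 375 and 416 CPM and the collagen chaperone Serpinh1 at 362, 259.9 and 391 CPM. In the list for propeptide removal, cross-linking and fibril assembly, 1 of 15 was higher in BMD (Fn1) and 2 lower (Tll2 and Dcn), beside 4.08% and 6.42% of all genes. In DMD 2 of 16 were higher (Loxl1 and Fn1) and 1 lower (Tll2), beside 3.63% and 2.85%. Loxl1, named after its values were seen, a lysyl oxidase that cross-links fibres, was at 274 CPM in WT against 405 in BMD and 477 in DMD. Fibronectin (Fn1), on which fibrils assemble, was at 100.3 CPM in WT against 239.6 in BMD and 156 in DMD, and the propeptidase Tll2 at 23.8, 13.7 and 12.1 CPM. Decorin (Dcn), a fibril-binding proteoglycan and a marker of this class, was at 3471, 2161 and 3150 CPM. The propeptidase Adamts2 (721, 658 and 634 CPM), Sparc (712, 633 and 772 CPM) and Bgn (423, 396 and 450.3 CPM) stayed under the limit.

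Of 7 collagen receptors with enough UMIs, 1 was higher in each comparison (4.08% of all genes in BMD and 3.63% in DMD), the integrin subunit Itga1, at 88.3 CPM in WT against 157 in BMD and 145 in DMD. The collagen receptor tyrosine kinase Ddr2 (840.3, 692 and 676 CPM), Itgb1 (361, 396 and 375 CPM) and Mrc2 (291, 334 and 361 CPM) stayed under it. Of 13 genes of fibroblast activation with enough UMIs, 8 were higher and 0 lower in BMD (4.08% and 6.42% of all genes), and 6 were higher and 1 lower (Ptx3) in DMD (3.63% and 2.85%). This list, like the others, was chosen with earlier results of these data known. Of its genes, Meox1 and Comp had enough UMIs only through the mutant libraries, in which they were high. Ltbp2, a binding protein of the matrix, was at 86.2 CPM in WT against 409 in BMD and 241 in DMD. Ccn2, a matricellular growth factor, was at 75.3, 294 and 256 CPM, and Tgfb1 at 31.6, 60.8 and 56.8 CPM. Thbs4 was at 8.06, 36.1 and 41.8 CPM, Meox1 at 3.72, 13.4 and 17.9 CPM and Comp at 3.51, 11.3 and 13.3 CPM. These 6 genes were higher in both mutant libraries, and Postn, a matrix protein of activated fibroblasts, passed the limit in BMD only (385, 649 and 538 CPM), while Fap (153, 204 and 186 CPM) stayed under it. In cardiomyocyte-like nuclei, Ccn2 was at 81.9 CPM in WT against 488 in BMD and 441 in DMD and Tgfb2 at 136, 682 and 570.1 CPM. P3h2, a prolyl hydroxylase of basement membrane collagen, was at 4.74, 67.7 and 27.8 CPM. The integrin subunit Itgb1 was at 244, 471 and 542 CPM in those nuclei.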

How the data were processed

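Nuclei of 3 libraries (WT, BMD and DMD) were sequenced on the 10x Genomics platform. The authors deposited unfiltered matrices of UMI counts per gene and barcode made with Cell Ranger (the headers give versions 6.0.1 and 4) on the build rn6; whether intronic reads were counted is not given in the sources used here. WT counts were read from an aggregate of the libraries, which kept 76.1% of the UMIs of BMD and 92.9% of those of DMD; BMD and DMD were read from their own matrices. Whether WT was thinned is not known.

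Nuclei were clustered with scanpy 1.11.5 and igraph 0.11.9 (2000 variable genes, 30 principal components, 15 neighbours, Leiden resolution 0.5), leaving out the 42 collagen genes, 13 mitochondrial genes, 5 sex-linked genes and 8 genes of the study. A class needed 3 listed markers at 2-fold. Counts were summed per class and library. Intervals for CPM, ratios and shares were exact Poisson, conditional binomial and Clopper-Pearson. Calls used CPM + 5, a 1.5-fold limit and at least 50 UMIs. Named genes had at least 50 UMIs in their highest class; listed pathway genes were named when past the limit in both comparisons or among the 4 with most UMIs of their list. Doublets were kept, and removed with Scrublet as an alternative. The members and lists were chosen with earlier results of these data known. Scripts were tested on simulated data. Sequences are from RefSeq (GRCr8).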

Additional observations from a re-analysis of the deposited data

Results flagged for a closer look

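Col18a1, the gene of the endostatin precursor, had ratios of opposite sign in different classes. On the log2 scale of CPM + 5 it was lower than WT in fibroblast-like nuclei, by -0.95 in BMD and -0.79 in DMD. It was higher than WT in endothelial-like nuclei, by 0.89 in BMD and 0.82 in DMD, and in cardiomyocyte-like nuclei, by 1.35 in BMD and 0.78 in DMD. The difference between the classes was not tested, since each genotype had 1 library.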

How the results depend on the processing

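No paired analysis was possible because each genotype had 1 library; for the same reason leaving out a library leaves no sample of its genotype. Values set by a single library carry no measure of the spread between animals. Of 559 recomputed log2 ratios of named collagen genes in fibroblast-like nuclei 547 had the same sign as reported, and of 156 in other classes 155. Settings named as sub-cluster settings (the mix held fixed, or the bone gene sub-cluster left out) and those in other classes were chosen after seeing the data. The cause of each shift below was not tested.

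The fibroblast-like total over WT in BMD was 1.17 with at least 1000 UMIs per barcode, 1.15 as a mean over nuclei and 1.11 with the mix fixed. In DMD it was 1.16 at a limit of 500 UMIs, 1.18 at 1000 UMIs, 1.16 without nuclei of over 5% mitochondrial UMIs, 1.16 at Leiden resolution 1.0 and 1.13 with the mix fixed. The total over all nuclei in BMD was 0.932 with at least 1000 UMIs, 0.894 without Scrublet doublets (8.57%, 5.32% and 11.1% of nuclei in WT, BMD and DMD) and 0.855 with the mitochondrial limit. In DMD it was 1.23 with at least 1000 UMIs and 1.12 with the mitochondrial limit.

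With the mix fixed, 1 member was higher and 1 lower in BMD, and 3 higher and 1 lower in DMD; these were not all the members reported, since DMD lost Col1a1, Col11a1, Col13a1, Col4a3, Col4a4 and Col18a1 and gained Col6a6 (higher) and Col12a1 (lower), and BMD kept Col8a2 and Col18a1. At a 2-fold limit 0 members were lower in BMD and 0 in DMD, and 3 were higher in DMD. Members higher in DMD numbered 3 with at least 1000 UMIs per barcode, 3 without the bone gene sub-cluster, 3 with at least 100 UMIs per gene and 8 with no minimum. The last setting added Col11a2, Col25a1 and Col2a1. The share of all genes past the limit is given for the main setting only. The counts at other settings are therefore not read as results about the members. Col13a1 in DMD reversed to -0.38 without the bone gene sub-cluster and to -0.26 with the mix fixed, which also leaves out that sub-cluster. Col14a1 in pericyte or smooth muscle-like nuclei reversed in BMD to -0.22 with at least 1000 UMIs per barcode.

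The share of collagen UMIs held by fibroblast-like nuclei with at least 500 UMIs per barcode was 72.9% in WT, 65.9% in BMD and 67.7% in DMD. With at least 1000 UMIs it was 69.9% in WT and 64.3% in BMD. Without doublets it was 79.2%, 68.7% and 73.8%, with the mitochondrial limit 67.6%, 59.6% and 59.3%, and at Leiden resolution 1.0 it was 72.9%, 65.8% and 68.0%. At the limit of 500 UMIs and at Leiden resolution 1.0 the fibroblast-like class took in a cluster with both fibroblast and endothelial markers. In the main setting a cluster of this kind was left without a name. The share of nuclei with Col1a1 was 26.4%, 23.2% and 33.5% with the mitochondrial limit, 52.4%, 54.8% and 63.8% with no thinning, 45.1%, 43.5% and 55.1% when thinned to 1000 UMIs, and 34.0% in DMD at Leiden resolution 1.0. The share with Col3a1 was 85.6%, 90.7% and 92.1% with no thinning and 84.1%, 86.0% and 90.2% when thinned to 1000 UMIs, 64.8% in WT at Leiden resolution 1.0 and 68.3% in BMD with the mitochondrial limit.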

Other observations

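Smaller classes held single collagens at high levels. In Schwann-like nuclei (94 WT, 77 BMD and 86 DMD nuclei) the FACIT gene Col16a1 had a mean of 404 CPM, against 53.0 CPM in fibroblast-like nuclei, and stood at 503 CPM in WT, 495 in BMD and 215 in DMD from 58, 51 and 27 UMIs. Col18a1 had a mean of 367 CPM in the same nuclei. The leading genes of this class included Ighm, Bank1 and Pax5, genes of B cells, beside its 7 Schwann markers. At Leiden resolution 1.0 a Schwann-like cluster held 69 WT, 34 BMD and 32 DMD nuclei. A separate cluster led by Ighm, Bank1 and Pax5, named T or B cell-like from Ms4a1, Cd79a and Cd79b, held 29, 43 and 54. Summed Schwann markers stood at 9371 CPM in WT against 7938 in BMD and 5424 in DMD in the Schwann-like class. The part of this mix in the Col16a1 and Col18a1 values was not tested. In lymphatic endothelial-like nuclei the transmembrane collagen Col13a1 had its highest mean, 181 CPM, with 176 CPM in WT, 214 in BMD and 152 in DMD. Both lymphatic ratios to WT had intervals that included no difference (log2 0.28, -0.32 to 0.92, in BMD and -0.21, -0.88 to 0.48, in DMD). In endocardial-like nuclei Col13a1 was at 37.2 CPM in WT against 199 in BMD and 45.9 in DMD, from 8, 50 and 19 UMIs (log2 2.42 in BMD, 1.33 to 3.71). Col13a1 had enough UMIs in that class only through BMD, the library in which it was high. It was the only member higher in BMD past 1.5-fold there. Lower in BMD past the limit were Col5a1, Col4a4 and Col6a2, which were also lower in DMD, and Col4a3, Col1a1 and Col4a1. Differences of lymphatic endothelial-like and endocardial-like nuclei from endothelial-like nuclei were not tested.

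In macrophage-like nuclei the FACIT gene Col19a1 was at 15.7 CPM in WT, 19.8 in BMD and 123 in DMD, from 19, 21 and 123 UMIs. Col19a1 had enough UMIs in this class only through DMD, the library in which it was high. The upper estimate of free RNA in this class was 25.2%, 21.3% and 27.2% of its UMIs, and 1.78% of all Col19a1 UMIs came from fibroblast-like nuclei. In cardiomyocyte-like nuclei Col19a1 was lower in DMD, at 26.6 CPM in WT, 26.4 in BMD and 11.4 in DMD. Col7a1, the anchoring fibril gene, was highest in pericyte or smooth muscle-like nuclei at 33.5, 24.8 and 36.7 CPM from 23, 13 and 22 UMIs. The monocyte-like class held 35 WT, 35 BMD and 262 DMD nuclei, with an upper estimate of 100% of UMIs from free RNA in WT, so their collagens were not compared.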
